A study of Mus musculus with 7 samples.

Results

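A group of 9 genes of the smooth muscle contractile programme was followed across a set of mouse foregut and gut samples: Acta2, Actg2, Myh11, Des, Cnn1, Tagln, Smtn, Lmod1 and Myocd. They were taken by name, with every probe that the array carries for them, and gave 13 probes of 9 genes among 17047 named genes. The rule that chose them uses no measured value, but the members were chosen with earlier results of these data known. Smooth muscle forms the outer wall of the stomach and gut, develops there from the mesenchyme around the epithelial tube, and shortens when myosin pulls on actin filaments. Its contractile genes are switched on together by serum response factor, a DNA-binding protein that sits on a short element called the CArG box, with the coactivator myocardin. The same genes are active in the walls of blood vessels and airways, and some of them also in myofibroblasts, in the embryonic heart or in skeletal muscle.

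RNA of 7 samples was hybridised in 1 colour (Cy3) to 7 Agilent arrays, 1 array per sample. The 4 adult organs, esophagus, stomach, intestine and lung, came fresh from ICR mice, and the embryonic stomach was the E9.5 stomach primordium of the ICR strain. The tissue labelled as stomach derived from mouse embryonic stem (ES) cells was sampled at day 42 and at day 46. Day 42 tissue had grown in DMEM/F12 with N2/B27 and EGF (50 ng/mL), together with FGF10 (100 ng/mL), Wnt3a, Noggin and R-spondin1 (250 ng/mL). Day 46 tissue had 42 days in that medium and then 4 days with Shh (100 ng/mL) and Bmp4 (10 ng/mL), and the labels do not say which of the first factors stayed; medium and age differ together between the ES-derived samples. The labels name neither the ES cell line nor the number of animals, wells or pools behind a sample, and they mention no sorting of cells.

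A level here is the log2 of a probe's background-corrected signal minus the 75th percentile of its array, so 0 is the 75th percentile and 1 unit is a 2-fold difference. Levels of different genes are not comparable, because each probe has its own brightness, and a gene's comparison below is of 1 probe between arrays unless a mean over its probes is named. Summed signals of gene lists are given only to describe an array, and the brightest probes of a list weigh most in them. With 1 array per sample there are no replicates, no test was possible and no p-value is given. As a yardstick, the spread among different probes of the same gene was used: its SD for a log2 difference was 0.48 to 0.63 between adult organs and E9.5 stomach against adult stomach, 0.51 between both ES-derived samples, and 0.85 to 0.89 between the ES-derived samples and the adult or E9.5 stomach. A gap inside this probe SD is called undistinguished. The yardstick covers probe behaviour only and holds no information on how far animals or cultures differ. All 13 probes of the 9 genes were above background on all 7 arrays.

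The arrays detected between 66.1% of probes (day 42) and 82.8% (day 46). The adult organs shared 1 slide, whereas the E9.5, day 42 and day 46 arrays each lay on a slide of their own, so slide and sample cannot be told apart for them. Organ markers matched the adult labels, with Atp4b at 9.94 in stomach, Fabp2 at 10.01 in intestine and Sftpc at 9.71 in lung. The keratins Krt13 and Krt4 were at 6.48 and 6.61 in esophagus, against 4.50 and 4.56 in stomach. However, the esophagus array also read 5.12 for Sftpc and 5.44 for Scgb1a1, another lung marker, which was at 9.57 in lung. Embryonic globin Hbb-bh1 was at 6.85 in the E9.5 sample. The acid pump subunit Atp4b stood at -4.84 and -3.87 in the day 42 and day 46 tissue, far under the adult stomach, and the mucus-cell gene Gkn1 was not above background at day 42 and at -1.75 at day 46 against 3.98 in adult stomach. In bulk tissue, fewer muscle cells and less RNA per muscle cell cannot be told apart.

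The promoters of the members were searched for the CArG box, the element named above. RefSeq promoters (build GRCm38.p6, 250 bases before to 50 after the start site) were at hand for 5 of the 9 genes: Acta2, Cnn1, Des, Lmod1 and Smtn. Both strands were searched, at every position of the window, for this motif of 10 bases. No exact match lay in any of the 5 windows, against 1.63% of 32851 promoters of the same length. With 1 departure from the motif allowed, Acta2 and Lmod1 each held a pair of matches, and 2 of 5 windows had a match against 21.1% of all promoters. A window with 2 or more such matches is less frequent, at 3.70% of all promoters. That share is given because of the pairs seen here, and with 5 windows it is no test of enrichment. The Acta2 and Lmod1 windows are shown because they hold those pairs, 5′ to 3′, with the matches in capitals. Acta2 lies at chr19:34255324-34255623 on the minus strand and Lmod1 at chr1:135324563-135324862 on the plus strand.
Acta2: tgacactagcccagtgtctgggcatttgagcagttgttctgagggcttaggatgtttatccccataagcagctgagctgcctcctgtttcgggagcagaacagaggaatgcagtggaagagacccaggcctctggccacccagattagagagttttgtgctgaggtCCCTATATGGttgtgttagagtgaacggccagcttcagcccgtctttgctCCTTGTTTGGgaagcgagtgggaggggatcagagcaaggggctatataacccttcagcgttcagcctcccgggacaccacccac
Lmod1: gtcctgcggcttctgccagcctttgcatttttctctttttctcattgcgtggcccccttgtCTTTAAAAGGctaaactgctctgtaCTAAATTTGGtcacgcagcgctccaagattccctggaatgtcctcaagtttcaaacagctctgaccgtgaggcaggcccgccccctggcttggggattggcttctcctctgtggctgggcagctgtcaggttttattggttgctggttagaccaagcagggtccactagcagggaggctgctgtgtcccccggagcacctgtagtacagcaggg
The Acta2 matches start at -84 and -34 from the start site, and those of Lmod1 at -189 and -164. A match of letters describes the window and is not evidence of binding, and an empty window says only that these letters are not there.

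**Figure D1:**
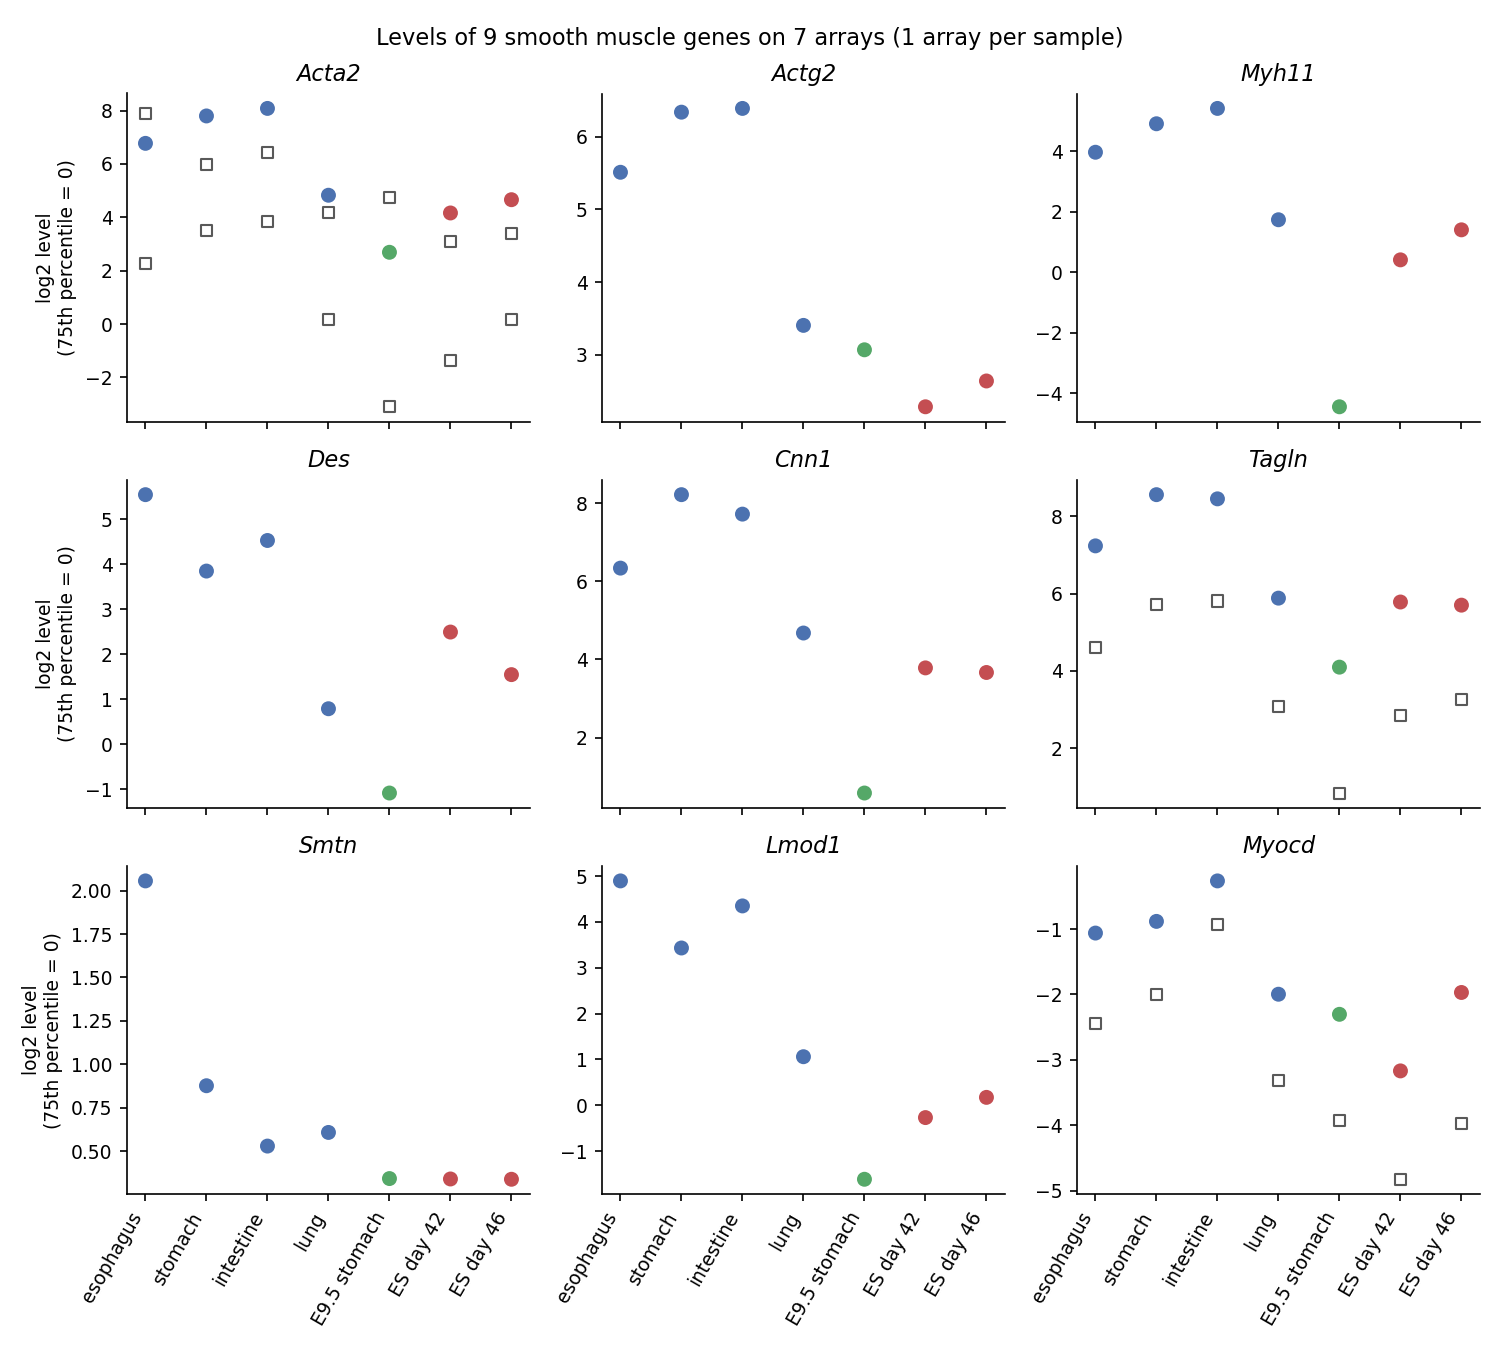
Log2 level (75th percentile of each array = 0) of the 9 genes on the 7 arrays, 1 panel per gene with its own axis; filled circles are the probe with the highest mean (blue adult organs, green E9.5 stomach, red ES-derived), open squares the other probes of that gene. Myh11 spans -4.44 in E9.5 stomach to 5.41 in adult intestine, while Smtn stays between 0.34 and 2.06.

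Across the 9 genes the 3 muscular adult organs were high and the E9.5 stomach was low. The 3 highest arrays were esophagus, stomach and intestine for 8 of the 9 genes, the exception being Smtn. The top array was intestine for 4 genes, esophagus for 3 and stomach for 2. The lowest array was E9.5 stomach for 6 genes, day 42 for 2 (Actg2 and Myocd) and day 46 for 1 (Smtn). With each gene centred on its own mean over the arrays, the 9 genes averaged 1.63 in esophagus, 1.84 in stomach, 2.07 in intestine, -0.62 in lung, -2.80 in E9.5 stomach, -1.19 at day 42 and -0.93 at day 46. The ES-derived tissue therefore sat between E9.5 stomach and the adult organs on this average, a little under adult lung, whose muscle lies in airways and vessels.

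The actin and myosin of the filaments come first. Myh11, the smooth muscle myosin heavy chain that does the pulling, was at 3.96 in esophagus, 4.90 in stomach, 5.41 in intestine, 1.73 in lung, -4.44 in E9.5 stomach, 0.41 at day 42 and 1.40 at day 46. The embryonic array is low by itself, and both ES-derived arrays lie between it and the lung. The span of Myh11 from E9.5 stomach to intestine was 923-fold, wider than for the other 8 genes. Its low end depends on the background correction and scaling: E9.5 minus adult stomach was -9.34 as processed here, -7.80 with normexp background correction and -8.69 with quantile normalisation. Intestine and stomach were undistinguished, as were lung and day 46, while day 46 exceeded day 42 by 0.99, beyond the probe SD of 0.51 and just short of 2-fold.

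Actg2, the enteric smooth muscle actin that is typical of the gut wall, behaved differently in the cultures. It was at 5.51 in esophagus, 6.34 in stomach, 6.39 in intestine, 3.41 in lung, 3.07 in E9.5 stomach, 2.29 at day 42 and 2.64 at day 46. Here the ES-derived arrays are the lowest, below the E9.5 stomach, although lung, E9.5, day 46 and day 42 follow each other without a gap beyond the probe SD. The 3 gut organs stand apart from these 4 arrays.

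Acta2, alpha smooth muscle actin, which also marks myofibroblasts and vessel walls, has 3 probes. The probe with the highest mean read 6.77 in esophagus, 7.80 in stomach, 8.08 in intestine, 4.83 in lung, 2.69 in E9.5 stomach, 4.16 at day 42 and 4.66 at day 46. It had 8 to 10 spots per array after outlier spots were dropped, with an SD of 0.04 to 0.15 among them. Intestine and stomach are together at the top, lung and the ES-derived arrays form an undistinguished middle, and the embryo is lowest. A second probe read 2.27, 3.51, 3.83, 0.16, -3.10, -1.36 and 0.17 on the arrays in the same sequence. It has the same arrays at the top and the bottom, but its middle splits, with lung and day 46 level and day 42 below both by more than the probe SD. The remaining probe did not: it read 7.89, 5.98, 6.43, 4.17, 4.74, 3.08 and 3.39, which places esophagus 1.90 above stomach and day 42 tissue 1.65 below E9.5 stomach. Acta1, the skeletal muscle actin and a close relative in sequence, stood at 8.85 in esophagus, 2.02 in stomach, 0.63 in E9.5 stomach and -1.48 at day 42. It moved with the deviating probe in both contrasts. Actc1, an actin of the cardiac list, was at 6.55, 4.87, 2.85 and 3.51 on the same arrays. It moved with that probe for esophagus and stomach. For day 42 against E9.5 stomach it did not (0.65, inside the probe SD of 0.89). Whether the deviating probe reads other actins was not tested.

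Of the 4 proteins that bind the thin filament, Cnn1, Tagln and Lmod1 were lowest in E9.5 stomach. Cnn1, calponin, which binds actin and damps the myosin motor, was at 6.34 in esophagus, 8.22 in stomach, 7.73 in intestine, 4.68 in lung, 0.58 in E9.5 stomach, 3.78 at day 42 and 3.67 at day 46. Stomach and intestine are high, the embryo is low, and the ES-derived pair is as one, 0.12 apart. Its range over the arrays was 200-fold.

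Tagln, transgelin or SM22-alpha, an actin-binding protein that appears early in smooth muscle, was at 7.23 in esophagus, 8.56 in stomach, 8.45 in intestine, 5.88 in lung, 4.10 in E9.5 stomach, 5.78 at day 42 and 5.70 at day 46. Lung and both ES-derived arrays are undistinguished, and the embryo again is lowest. Its second probe read 4.61, 5.72, 5.81, 3.07, 0.84, 2.84 and 3.26 in the same sequence of arrays, with the same 3 tiers.

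Lmod1, leiomodin, which starts new actin filaments in smooth muscle, was at 4.89 in esophagus, 3.43 in stomach, 4.35 in intestine, 1.06 in lung, -1.62 in E9.5 stomach, -0.27 at day 42 and 0.17 at day 46. Unlike calponin and transgelin, it was highest in esophagus, which was undistinguished from intestine, and the stomach came next. Smtn, smoothelin, an actin-associated protein of contractile muscle, was at 2.06 in esophagus, 0.88 in stomach, 0.53 in intestine, 0.61 in lung, 0.34 in E9.5 stomach, 0.34 at day 42 and 0.34 at day 46. Only the esophagus stood beyond the probe SD of its neighbour in that order, and the other 6 arrays followed without such a gap. Smtn was the flattest of the 9 genes, with a span of 3.29-fold.

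Des, desmin, the intermediate filament of smooth, cardiac and skeletal muscle, was at 5.55 in esophagus, 3.85 in stomach, 4.53 in intestine, 0.79 in lung, -1.08 in E9.5 stomach, 2.50 at day 42 and 1.55 at day 46. Both cultures lie above the E9.5 stomach, and day 42 lies above the lung by more than the probe SD. Its probe was printed 10 times, with an SD of 0.04 to 0.09 among spots. Desmin belongs to other muscle as well, and cardiac and skeletal genes are given below.

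Myocd, myocardin, the coactivator of serum response factor, was at -1.06 in esophagus, -0.88 in stomach, -0.26 in intestine, -2.0 in lung, -2.30 in E9.5 stomach, -3.17 at day 42 and -1.97 at day 46. Intestine leads, stomach and esophagus follow together, and the other 4 arrays are lower, with day 42 the lowest. Day 42 lies 1.20 below day 46, beyond the probe SD of 0.51, but is undistinguished from E9.5 stomach. The second probe gave -2.45, -2.0, -0.93, -3.31, -3.93, -4.83 and -3.97 in the same sequence, with day 42 again at the bottom. Its DNA-binding partner Srf varied far less, from 1.67 at day 42 to 2.72 in intestine, and the related coactivator Mrtfa from 2.39 in intestine to 3.34 in stomach.

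**Figure D2:**
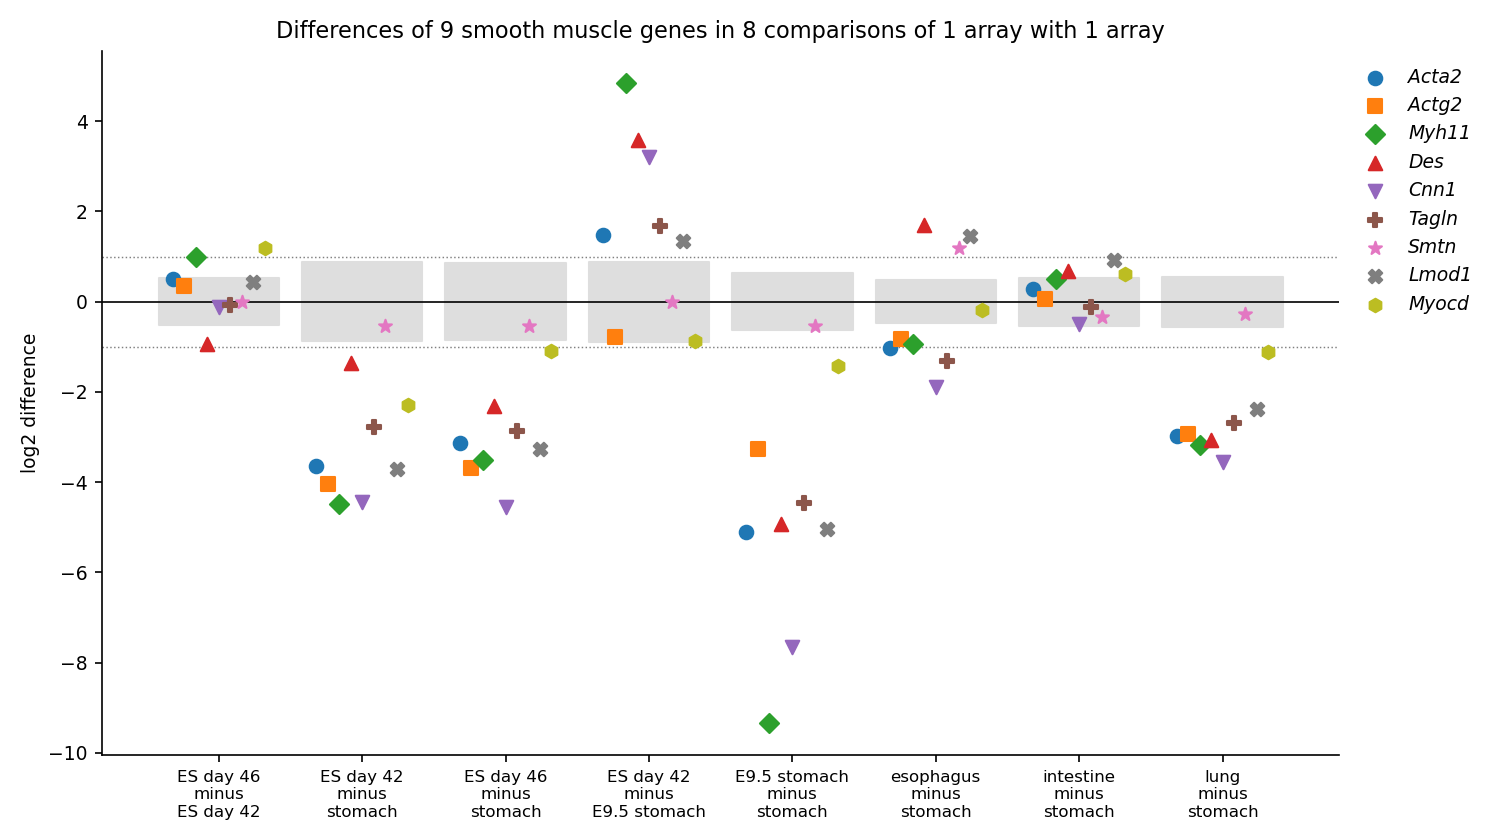
Log2 difference (first array minus second) of the 9 genes in 8 comparisons of 1 array with 1 array; the grey band is plus or minus 1 SD between probes of the same gene and dotted lines mark 2-fold. The 3 comparisons of ES-derived or E9.5 tissue with adult stomach have 8 of 9 genes below the lower dotted line, and intestine against stomach has none outside both lines.

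Set against adult stomach, the day 42 tissue had lower levels of every contractile gene but Smtn at 2-fold. A 2-fold lower level was seen for 8 of the 9 and a 2-fold higher one for 0, where 22.6% of all genes tested were lower and 20.2% higher. The median difference of the 9 genes was -3.64, and that of all genes was 0.00. The differences were -4.49 for Myh11, -4.44 for Cnn1, -4.05 for Actg2, -3.70 for Lmod1, -3.64 for Acta2, -2.78 for Tagln, -2.29 for Myocd and -1.36 for Des. Desmin was thus closest of the 8, and Smtn, at -0.54, lay inside the probe SD of 0.87. With each array centred on its median in place of its 75th percentile, Des (-0.89) is no longer 2-fold lower.

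Day 46 tissue gave a similar picture against the same stomach array, which both comparisons share. Again 8 of 9 genes passed 2-fold downwards and 0 upwards, beside 22.1% and 19.4% of all genes, with a median of -3.14. Cnn1 (-4.56), Actg2 (-3.69), Myh11 (-3.50), Lmod1 (-3.26) and Acta2 (-3.14) were furthest below. Tagln followed at -2.86 and Des at -2.30, and Myocd, at -1.09, was only just past 2-fold and short of it with normexp background correction (-0.94).

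Against the E9.5 stomach, the day 42 tissue was higher in most of the programme, except Actg2, Myocd and Smtn. At least 2-fold higher were 6 of 9 genes and 0 were lower, where 28.1% of all genes were higher and 25.9% lower. The 9 genes had a median of 1.47 and all genes one of -0.03. The higher genes were Myh11 (4.85), Des (3.58), Cnn1 (3.21), Tagln (1.69), Acta2 (1.47) and Lmod1 (1.35). Actg2 (-0.78), Myocd (-0.87) and Smtn (0.00 when rounded) lay inside the probe SD of 0.89. The Acta2 entry rests on its probe, since with the mean over its 3 probes the difference is 0.52 and 5 genes are 2-fold higher.

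The embryonic and adult stomach were the furthest apart. In the embryo 8 of 9 genes were lower by 2-fold or more and 0 were higher, beside 29.8% and 27.3% of all genes, with a median of -4.93. Myh11 differed by -9.34, Cnn1 by -7.65, Acta2 by -5.11, Lmod1 by -5.05, Des by -4.93 and Tagln by -4.46. Actg2 (-3.26) and Myocd (-1.42) differed least among those 8, and median centring leaves Myocd short of 2-fold (-0.85). Measured along this embryo-to-adult axis, on the log2 scale, day 42 tissue lay 72.5% of the way for Des, 51.9% for Myh11, 41.9% for Cnn1, 37.8% for Tagln, 28.8% for Acta2 and 26.7% for Lmod1. Day 46 lay at 53.3% for Des, 62.5% for Myh11, 40.4% for Cnn1, 35.9% for Tagln, 38.6% for Acta2 and 35.4% for Lmod1. Myocd was at -60.9% at day 42, below the embryonic end of this axis, and at 23.5% at day 46. Actg2 (-24.0% and -13.1%) was below that end in both cultures, and Smtn (-0.44% and -0.77%) was at it. These departures below the embryonic end are undistinguished from it. At day 42 the gaps to E9.5 stomach were -0.87 for Myocd and -0.78 for Actg2, inside the probe SD of 0.89. The gap of Actg2 at day 46, 0.43, lay inside 0.88. The Acta2 values here are those of its main probe. Its second probe differed by -6.61 between embryonic and adult stomach, and its deviating probe by only -1.25. On the deviating probe both cultures lay below the embryonic end, at 3.08 (day 42) and 3.39 (day 46) against 4.74 in E9.5 stomach.

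The 4 days in Shh and Bmp4 were accompanied by small differences in these genes. Only Myocd was 2-fold higher at day 46 than at day 42 (1 of 9), and 0 were 2-fold lower, where 9.0% of all genes were higher and 6.47% lower, so the members' share is near the background. Myocd differed by 1.20 on its main probe and by 0.86 on the second, which misses 2-fold. Myh11 was 0.99 higher and Des 0.95 lower, both beyond the probe SD of 0.51. The other 6 genes lay inside it: Acta2 at 0.50, Lmod1 at 0.44, Actg2 at 0.35, Smtn at 0.00 when rounded, Tagln at -0.08 and Cnn1 at -0.12. The other Acta2 probes differed by 1.53 and 0.31, and the mean over its 3 probes by 0.78, beyond that SD. The median of the 9 genes was 0.35, and this sign rests on the scaling, because median centring gave -0.05. Which gene passes 2-fold rests on the processing too: under median centring Myocd (0.80) is no longer 2-fold higher and Des (-1.35) is the 1 gene that is 2-fold lower. With quantile normalisation Myocd is at 0.88 and Myh11, at 1.09, is the 1 gene past 2-fold, and with normexp background correction they are at 0.76 and 1.05. Among all genes called in this pair the share that were higher was 58.2% as scaled here, 17.6% with median centring and 41.2% with quantile normalisation. Relative to the median of genes detected on both arrays, which a shift of an array does not change, Myocd lay 1.31 and Myh11 1.10 above and Des 0.83 below.

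**Figure D3:**
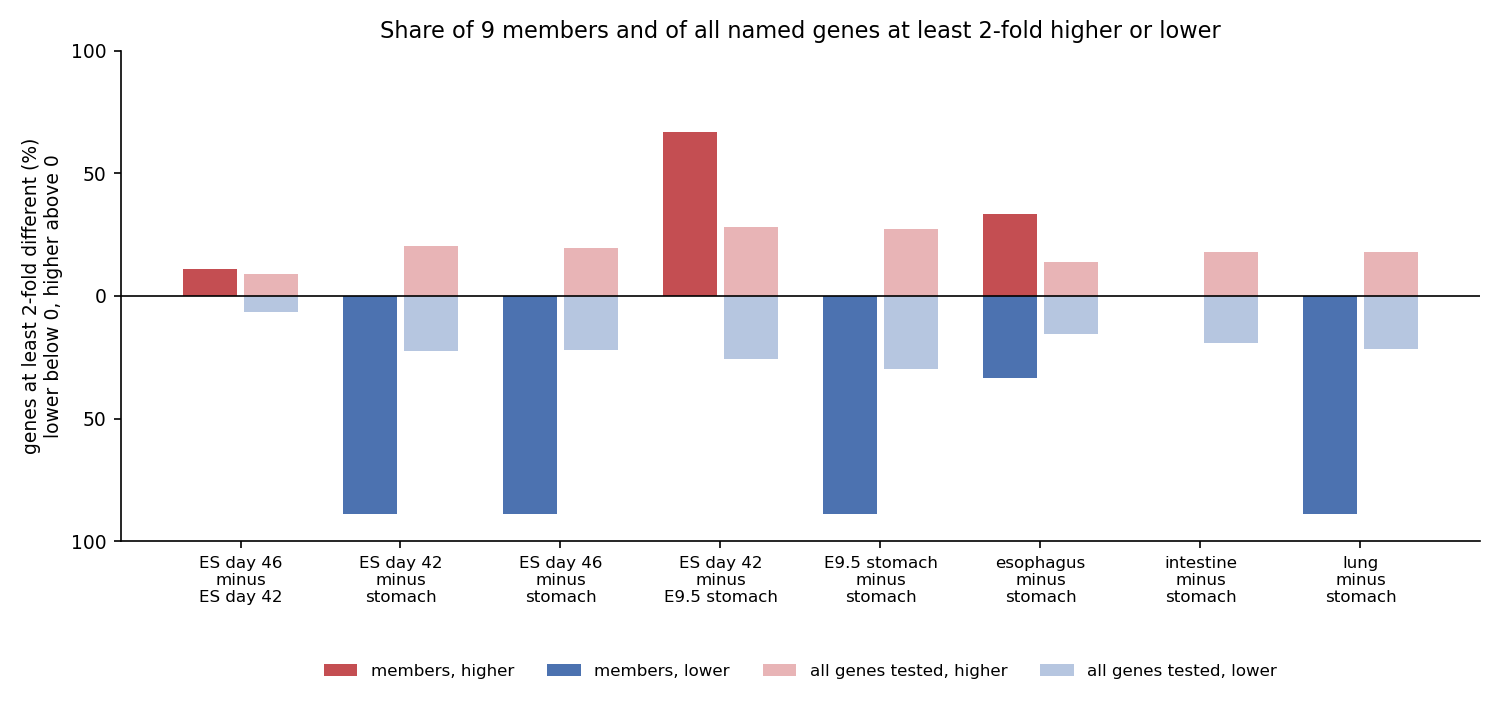
Share of the 9 genes (dark bars) and of all named genes tested (pale bars) that were at least 2-fold higher (above 0) or lower (below 0) in each of 8 comparisons. The dark bars reach 8 of 9 lower in 4 comparisons, all against adult stomach, and have no height for intestine against stomach.

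Among adult organs, stomach and intestine had much the same contractile levels. In intestine 0 of 9 genes were 2-fold higher than in stomach and 0 were 2-fold lower, where 17.9% of all genes were higher and 19.2% lower. The median was 0.28, and the 9 differences ran from -0.50 for Cnn1 to 0.92 for Lmod1. Des (0.68), Lmod1 and Myocd (0.62) exceeded the probe SD of 0.53. The second Myocd probe differed by 1.07, and with median centring Lmod1 is at 1.04.

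The esophagus split the programme instead of shifting it. Des (1.70), Lmod1 (1.46) and Smtn (1.18) were at least 2-fold higher than in stomach, and Cnn1 (-1.88), Tagln (-1.33) and Acta2 (-1.03) at least 2-fold lower, where 14.0% of all genes were higher and 15.6% lower. Myh11 (-0.94) and Actg2 (-0.83) were lower by less than 2-fold, and Myocd (-0.18) lay inside the probe SD of 0.48. The median was -0.83. Acta2 is uncertain here, because its deviating probe gave the opposite sign and quantile normalisation (-0.92) and normexp (-0.81) leave it short of 2-fold. Myh11 passes 2-fold with median centring (-1.03). The mouse esophagus has a coat of skeletal muscle, and 13 of 13 skeletal genes were at least 2-fold higher in it than in stomach, with a median of 8.43. The log2 of their summed signal was 11.85 in esophagus and 3.60 to 4.95 on the other 6 arrays, and 4 of the 13 genes (Myh4, Actn3, Myod1 and Myog) were not above background in stomach. The parts of skeletal muscle, and of whatever gave the Sftpc and Scgb1a1 signals on this array, in the Des, Lmod1 and Smtn values were not tested.

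Lung was lower in all of these genes but Smtn at 2-fold. Compared with stomach, 8 of 9 genes were lower by 2-fold or more in lung and 0 were higher, beside 21.8% and 18.0% of all genes, with a median of -2.93. Cnn1 differed by -3.55, Myh11 by -3.17, Des by -3.06, Acta2 by -2.97, Actg2 by -2.93, Tagln by -2.68, Lmod1 by -2.37 and Myocd by -1.11. Smtn, at -0.27, lay inside the probe SD of 0.56. Quantile normalisation made the median -2.21, and normexp left Myocd (-0.90) short of 2-fold.

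Within the group, Acta2 on its main probe was the most typical and Smtn the least. The deviating Acta2 probe, which orders the arrays differently, was not included in these correlations. Across the 7 arrays the Pearson correlation of a member with the mean of the other members was 0.99 for Acta2, 0.97 for Tagln, 0.96 for Cnn1 and Lmod1, 0.94 for Myh11, 0.89 for Des, 0.88 for Actg2, 0.84 for Myocd and 0.56 for Smtn. Over the 36 pairs it ran from 0.41 (Tagln with Smtn) to 0.99 (Acta2 with Tagln). These are descriptions over 7 arrays that share a division into adult organs, embryo and culture. Among 14094 other genes, those whose levels followed the members' mean most closely over the 7 arrays were Zbtb7c (0.987), Acsl1 (0.985), Capn1 (0.984), Aoc3 (0.983), Mpc2 (0.982), Cox7a1 (0.981), Slc49a4 (0.978) and Sntg2 (0.976).

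Genes that work with the members in the muscle cell had medians nearer to 0 than the members' -3.64. Of 13 measured partners in myosin activation and the thin filament, 6 were at least 2-fold lower and 1 higher at day 42 than in adult stomach, with a median of -0.79, where 22.6% of all genes were lower and 20.2% higher, as for the other lists in this contrast. Tpm2, a muscle tropomyosin, differed by -2.68, and Mylk, the kinase that switches on smooth muscle myosin, by -2.46. Mylk was at -1.49 in E9.5 stomach, 3.04 at day 42, 3.46 at day 46 and 5.50 in adult stomach, the same sequence as Myh11. Of 16 dense plaque, cytoskeleton and LIM genes, 4 were lower and 3 higher, with a median of -0.48, shares near those of all genes. Synm, synemin, an intermediate filament protein that pairs with desmin, was 148-fold lower at day 42 than in stomach, at -3.37 against 3.84, and was also below the E9.5 stomach at -1.53. That contrasts with desmin itself, which differed from stomach by -1.36 at day 42.

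Genes of calcium handling, channels and receptors were mixed, with 7 of 13 lower and 3 higher at day 42 than in stomach, beside 22.6% and 20.2% of all genes, and a median of -1.56. Kcnmb1, a potassium channel subunit of smooth muscle, differed by -4.03 and the cGMP-dependent kinase Prkg1 by -2.81, while the endothelin receptor Ednra (2.84) and the ryanodine receptor Ryr2 (2.68), which is prominent in heart, were higher. Of 14 measured transcriptional regulators 6 were lower and 0 higher, with a median of -0.59. Barx1, a homeobox gene of stomach mesenchyme, was at 0.76 in adult stomach and 0.98 in E9.5 stomach and not above background at day 42, which makes it at least 80.0-fold lower than the adult stomach. Klf4, which is also active in epithelium, was 2.77 lower at day 42 than in stomach and 1.56 higher at day 46 than at day 42.

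**Figure D4:**
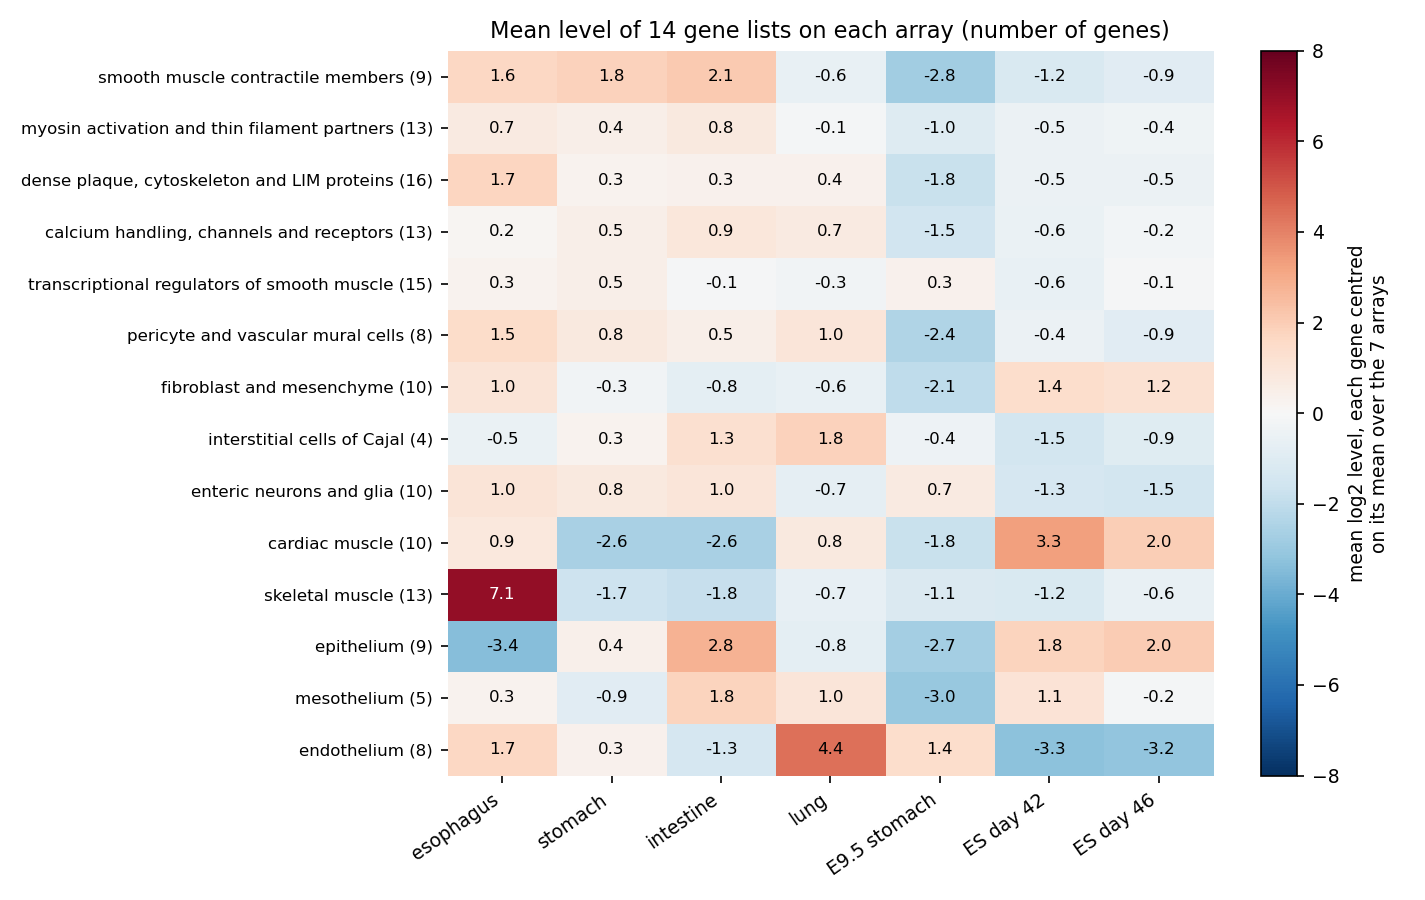
Mean log2 level of 14 gene lists on each array, each gene centred on its own mean over the 7 arrays, so that red is above and blue below that mean; numbers in brackets are genes per list. The contractile genes run from -2.8 in E9.5 stomach to 2.1 in intestine, while the skeletal list is high in esophagus (7.1), the cardiac list at day 42 (3.3) and the endothelial list in lung (4.4).

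Cardiac genes went against the members at day 42. Of 10 cardiac genes, 8 were at least 2-fold higher and 2 lower at day 42 than in stomach, with a median of 7.84. The log2 of their summed signal was 8.35 at day 42, 7.30 at day 46, 6.16 in adult stomach and 4.37 in E9.5 stomach. In adult esophagus it was 9.11, above both cultures. All 10 were above background in both cultures. Myh6, the atrial myosin heavy chain, was at 4.57 at day 42 and 3.40 at day 46 against -4.24 in stomach. At day 46, 6 of 10 cardiac genes were at least 2-fold lower than at day 42, with a median of -1.16, where 6.47% of all genes were lower. Des was lower there too (-0.95). The number of all genes called lower in this pair rests on the scaling, at 1000 as scaled here and 2785 with median centring. The part of cardiac cells in the Des levels was not tested.

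Fibroblast genes were high in the cultures, with 8 of 10 at least 2-fold higher and 0 lower at day 42 than in stomach and a median of 1.76. Their summed signal was 9.85 at day 42, 9.64 at day 46, 8.15 in adult stomach and 6.91 in E9.5 stomach on the log2 scale. The adult esophagus, at 9.51, was close to the cultures. Col1a1 was at 7.03 at day 42 against 4.54 in stomach, and the embryonic array had 2.73. By their medians, the contractile genes were lower in the cultures than in stomach and these mesenchymal genes were higher. The part of fibroblasts in the Acta2 and Tagln levels was not tested.

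Endothelial markers went the other way, and those of vascular mural cells were mixed. Of 8 endothelial genes 7 were at least 2-fold lower at day 42 than in stomach and 0 higher, with a median of -3.35, and Pecam1 and Tie1 were not above background there. Of 8 pericyte and vascular mural genes, 4 were lower and 2 higher, with a median of -1.70; Rgs5 differed by -4.14 and Higd1b was not above background in E9.5 stomach or in either culture. The log2 of the summed mural signal was 3.62 in E9.5 stomach, 4.96 at day 42, 4.45 at day 46 and 4.59 in adult stomach. The part of vessel walls in the contractile levels was not tested.

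Markers of other cells of the gut wall differed by cell type at day 42. Kit, the receptor of the interstitial cells of Cajal that pace gut muscle, was at -3.68 at day 42 and -3.29 at day 46 against 0.41 in stomach. It was highest in lung, at 2.09. In the list of those cells 2 of 4 genes were at least 2-fold lower at day 42 than in stomach and 0 higher. Of 9 measured enteric neuron and glia genes, 5 were lower and 1 higher at day 42; the neuropeptide Vip was not above background in E9.5 stomach or in either culture and stood at -0.17 in stomach. Mesothelial genes, which mark the outer lining of the gut, were higher for 3 of 5 and lower for 1, with Msln at 6.77 at day 42 against 1.97 in stomach.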

How the data were processed

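The 7 samples were grouped by the labels, 1 array each. Per the file headers, the scanner files that the authors deposited hold each spot's background-corrected intensity (gProcessedSignal) with flags, written by Agilent Feature Extraction 10.7.3.1 (both ES-derived samples) or 10.5.1.1 (adult organs and embryo); the submitters' processing notes name 10.5. The authors also deposited log2 values, which per the labels' design text are shifted to the 75th percentile; across probes they correlated with the levels used here at 0.999 to 1.000, in the same direction, and had medians of -3.43 to -2.68, so scale, centring and direction are known.

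Control spots were dropped, as were 40 to 728 feature outliers on each array; saturation did not occur. Levels are means over a probe's spots on the log2 scale, less the array's 75th percentile. RefSeq gave names to 24375 of 41174 probes through accessions and to 57 through symbols, leaving 16742 unnamed. Each gene is represented by the probe whose mean over all arrays is highest. A gene not above background on 1 array of a pair gave a bound, against the lowest detected signal of that array. The calculation was checked on simulated data. The members, gene lists and comparisons were chosen with earlier results of these data known. At most 4 genes of each other list were named, those with the largest difference between day 42 and adult stomach. Genes that bear on a member (Srf, Mrtfa, Acta1, Actc1, Myod1, Myog and the organ markers) were added after their values were seen. Myl9, Synpo2, Cacna1c, Nkx3-2, Elk1 and Sox10 were not analysed here, nor was the 5-month culture. Python 3.11.15, numpy 2.4.6, pandas 2.3.3, R 4.3.3 and limma 3.58.1 were used. The alternatives were median centring, quantile normalisation, the authors' table, normexp background correction (offset 50), other rules for dim probes, the mean over probes and a 4-fold threshold.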

Additional observations from a re-analysis of the deposited data

How the results depend on the processing

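No paired analysis was possible because each group has 1 array, and for the same reason no array could be left out. No called value changed sign under the alternatives listed above, but none of them used another probe alone. The deviating Acta2 probe had the opposite sign to the main one for day 42 minus E9.5 stomach (-1.65 against 1.47). The same held for esophagus minus stomach (1.90 against -1.03). Of 56 medians 54, of 64 counts 60 and of 504 differences of single members 493 stayed within the spread of probes or within 1.5 times of the value given above, although a count can stay with another gene in it (Des or Myh11 in place of Myocd for day 46 against day 42). Some of this was fixed in advance. The other rules for dim probes had to leave the members unchanged, because all 13 of their probes were above background on all 7 arrays. Each of those rules gave 72 of the 493 differences. The authors' table has the same 75th-percentile scaling, and the mean over probes could change only the 3 genes with more than 1 probe. The exceptions among medians were lung against stomach with quantile normalisation (-2.21) and esophagus against stomach with the mean over probes (-0.31). Median centring gave 1 gene (Lmod1, 1.04) at least 2-fold different between intestine and stomach. A 4-fold threshold left 0 genes for day 46 against day 42, 3 for day 42 against E9.5 stomach and 0 for esophagus against stomach. Among single genes, Myh11 at day 42 against E9.5 stomach became 3.45 with normexp, and Acta2 in esophagus against stomach became -0.12 with the mean over probes. Median centring moved the higher share of all called genes from 47.1% to 67.8% for day 42 against stomach and from 47.8% to 63.5% for E9.5 against adult stomach, and normexp moved it from 46.7% to 32.7% for day 46 against stomach and from 58.2% to 37.3% for day 46 against day 42. The 8 genes that were lower at day 42 and in E9.5 stomach became 7 under median centring. Precision is limited by 1 array per sample.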
